A study of Mus musculus with 18 samples.

Results

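tRNA-derived small RNAs (tsRNAs) were compared between lungs of mice given bone marrow mesenchymal stem cells (BMSCs) and lungs of control mice, in 3 libraries of each group. These 6 libraries were the tsRNA libraries labelled as BMSC-treated or control, taken from 18 libraries of the series, which also holds 9 mRNA libraries and 3 tsRNA libraries of a chronic obstructive pulmonary disease (COPD) model. Control mice received phosphate-buffered saline (PBS). Mice of the COPD model were exposed to cigarette smoke, were injected intraperitoneally with cigarette smoke extract and received PBS. Mice of the BMSC-treated group went through the same model and then received 4000000 BMSCs in 100 µl of PBS through the tail vein. The BMSC-treated group therefore differed from the control group both by the model and by the cells, and in this comparison their parts cannot be told apart. Strain, age and sex are not given in the labels used here, nor is it stated that every library was made from its own mouse. The p-values therefore measure only the spread between these libraries, which may be technical. Libraries of the groups share the numbers 1 to 3, and the labels do not say what a number marks.

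tsRNAs are cut from transfer RNAs or from their precursors. tiRNAs arise by cleavage in the anticodon loop, which ribonucleases such as angiogenin carry out in stressed cells. Shorter tRNA-derived fragments (tRFs) begin at the 5′ end (tRF-5a, -5b and -5c, in order of length), end at the 3′ CCA (tRF-3a and -3b), come from the middle of the tRNA (tRF-2) or come from the trailer that is removed from the precursor (tRF-1). In lung, as in other tissues, 5′ fragments of the glycine and glutamate tRNAs are among the abundant small RNAs.

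The deposited table listed 193 tsRNAs of 9 structural types, 14 to 40 nucleotides (nt) long, from 48 classes of parent tRNA (amino acid and anticodon, with mitochondrial tRNAs kept apart). Of these, 147 came from nuclear and 46 from mitochondrial tRNAs, and 143 began at the first base of the tRNA. The filter on low counts left 186 to be tested, and the 7 others were all precursor trailers (tRF-1). A name such as tRF-1:16-Leu-AAG-1-M2 gives the first and last base, the parent tRNA and, after the M, the number of tRNAs that share the sequence. Nuclear parents are given by tRNA name, because the files hold no genome positions. The sequences behind the main results follow, 5′ to 3′ and written as DNA, from the deposited table.

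The 6 leucine tRF-5a members are shown because 3 of them had large differences. Capitals mark bases that differ from tRF-1:16-Leu-AAG-1-M2.
tRF-1:16-Leu-AAG-1-M2: ggtagcgtggccgagc
tRF-1:16-Leu-AAG-2-M3: ggtagTgtggccgagc
tRF-1:16-Leu-TAG-3: ggtagcgtggccgagT
tRF-1:16-Leu-CAG-1-M3: gTCagGAtggccgagc
tRF-1:16-Leu-CAA-1-M5: gTCagGAtggccgagT
tRF-1:16-Leu-TAA-2: ACCagGAtggccgagT
Counted from the 5′ end, tRF-1:16-Leu-AAG-2-M3 differs from the first by C6T alone and tRF-1:16-Leu-TAG-3 by C16T alone. The number of mismatches allowed in alignment is not given in the sources used here, so reads of these 3 could have been split between them and their separate levels are uncertain.

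The glycine 5′ tiRNAs are shown because the shares of nested fragments from these tRNAs are described below. Capitals mark bases 31 to 33, at which the 31-, 32- and 33-nt fragments end.
tiRNA-1:33-Gly-GCC-2-M3: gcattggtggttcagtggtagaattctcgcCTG
tiRNA-1:33-Gly-GCC-1: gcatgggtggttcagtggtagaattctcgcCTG
tiRNA-1:33-Gly-CCC-3-M2: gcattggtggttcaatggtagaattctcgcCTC
tiRNA-1:33-Gly-CCC-2: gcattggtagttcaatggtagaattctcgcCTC
In all 4 parents the anticodon began at base 33, so fragments of 32 nt ended directly before it and fragments of 33 nt held its first base.

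Members of other families that differed within all 3 numbers are also shown.
tRF-1:29-chrM.Ser-TGA: gagaaagacatataggatatgagattggc
tRF-1:23-Gly-ACC-1: gtttccgtagtgtagtggttagc
tiRNA-1:36-SeC-TCA-1: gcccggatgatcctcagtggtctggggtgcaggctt
tRF-+1:T32-Thr-CGT-1: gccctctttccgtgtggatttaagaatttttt
The first comes from a mitochondrial serine tRNA, which matched TrnS1 in RefSeq by amino acid and length (GRCm38.p6, chromosome MT, 6870 to 6938). The last is a trailer of a threonine tRNA precursor and ends in the T run at which RNA polymerase III stops.

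The libraries held 1502287, 618572 and 1654396 counts in the listed tsRNAs in control 1 to 3 and 1501927, 480002 and 1742029 in BMSC-treated 1 to 3. Both number 2 libraries stood apart. They were the shallowest of their groups, their listed tsRNAs made up 42.6% and 44.8% of the mapped reads against 61.7% to 70.6% in the other 4, and mitochondrial tRNAs gave 19% and 23.5% of their listed counts against 5.08% to 7.24%. Values without them are given beside the main results they change. A count of 3, the limit that a count of 0 allows, corresponded to 1.12 to 2.8 CPM (counts scaled by the authors to the mapped reads of each library) and covers counting error only. In the mRNA libraries of both groups, the lung markers Sftpc (614 to 1873 FPKM), Sftpb, Scgb1a1, Ager, Aqp5, Foxj1, Pecam1 and Cldn5 were present. The alveolar macrophage marker Marco was at 0 to 1.04 FPKM. Levels varied widely between libraries, from 6546 to 99536 FPKM for Scgb1a1 and from 1.33 to 80.2 FPKM for Foxj1.

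Same-numbered libraries deviated together from their group means, but so did some libraries of different numbers. Over the 186 tsRNAs that passed the filter on low counts, the correlation of these deviations was 0.72 for number 1, 0.73 for number 2 and 0.19 for number 3. The third pair was the weak one. Control 3 correlated better with BMSC-treated 1 (0.57), and control 1 with BMSC-treated 3 reached 0.22. Deviations cancel out within a group, so the number 2 libraries by themselves push numbers 1 and 3 the same way in both groups. The tsRNAs share each library's depth and composition, and these correlations are a description.

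**Figure D1:**
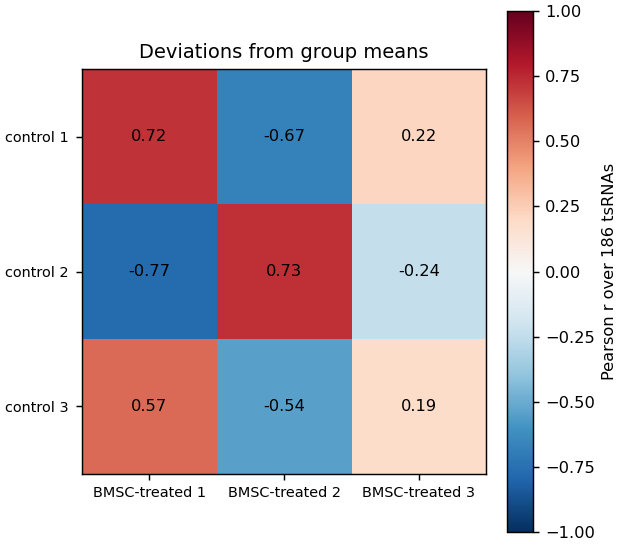
Pearson correlation over 186 tsRNAs of each control library's log2 CPM deviations from the control mean with those of each BMSC-treated library from the BMSC-treated mean. Same-numbered pairs lie on the diagonal (0.72, 0.73 and 0.19), and both number 2 libraries are negative against every library of another number.

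No single tsRNA passed the test between BMSC-treated and control lungs. edgeR's quasi-likelihood test called 0 of 186 tsRNAs at a Benjamini-Hochberg adjusted p under 0.05 (0% called), and the smallest adjusted p was 0.147. At an unadjusted p under 0.05, 4 tsRNAs were higher (2.15%) and 3 were lower (1.61%) in BMSC-treated lungs. With the number as a block, edgeR again called 0 of 186 (0%), with a smallest adjusted p of 0.173 and 5 higher and 10 lower at an unadjusted p under 0.05. DESeq2's Wald test called 1, and 3 with the block. The median log2 change over all 186 was 0.08, with 103 above 0. Scaled to the mapped reads in place of TMM factors (edgeR's scaling, which sets most tsRNAs equal between libraries) it was -0.12, with 81 above 0, so changes below are read relative to that median.

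Without both number 2 libraries, edgeR called 7 of 178 tsRNAs (3.93%), of which 4 rose and 3 fell, and 5 of 178 (2.81%) with the block added. The 4 that rose were tRF-1:16-Leu-AAG-1-M2, tRF-1:16-Leu-TAG-3, tRF-1:16-Leu-AAG-2-M3 and tRF-1:29-chrM.Ser-TGA. The 3 that fell were 5′ fragments assigned to glycine tRNAs, namely tRF-1:23-Gly-ACC-1, tiRNA-1:33-Gly-CCC-3-M2 and tiRNA-1:33-Gly-GCC-1. With the block, tRF-1:29-chrM.Ser-TGA (adjusted p = 0.0828) and tRF-1:23-Gly-ACC-1 (0.0615) were no longer called. Over all 19 alternative fits, the largest adjusted p of each of the 7 was 0.997. This subset was examined because the number 2 libraries stood apart, and it leaves 2 libraries a group. Leaving out both number 1 or both number 3 libraries instead gave 0 called tsRNAs, with or without the block. The smallest edgeR adjusted p in those fits was 0.387 to 0.995.

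Leucine tRF-5a fragments had 3 of the 4 largest fitted log2 changes above 0, none of which passed the test over all 6 libraries. These 16-nt fragments end in the D loop of leucine tRNAs, which carry leucine to the ribosome. tRF-1:16-Leu-AAG-1-M2, shared by tRNA-Leu-AAG-1-1 and tRNA-Leu-TAG-1-1, was at 25.8, 33.1 and 32.5 CPM in control 1 to 3 and at 119.8, 54.1 and 191 CPM in BMSC-treated 1 to 3. All 3 BMSC-treated libraries lay above all 3 controls, and number 2 was the lowest of them. Its log2 change was 2.35 ± 0.66 (SE, n = 3 per group), with an adjusted p of 0.147 by edgeR, and the within-number differences were 2.04, 0.87 and 3.10 (log2 CPM with TMM factors, as for all such differences below). DESeq2 gave an adjusted p of 0.0385. Without number 2 the log2 change was 2.68, with an edgeR adjusted p of 5.5e-06, and without BMSC-treated 2 alone it was the 1 tsRNA called. The COPD model libraries, given for their position only, were at 51.2, 44.3 and 78.4 CPM.

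tRF-1:16-Leu-AAG-2-M3 was at 6.33, 16.5 and 19.8 CPM in controls and at 45.1, 42.9 and 41.1 CPM in BMSC-treated lungs. The BMSC-treated values were close to each other and above every control. The log2 change was 1.88 ± 0.67 (SE, n = 3 per group; edgeR adjusted p = 0.617), and the within-number differences were 2.54, 1.49 and 1.59. tRF-1:16-Leu-TAG-3 was at 20.8, 52.3 and 51.5 CPM in controls and at 103.4, 47.6 and 118.5 CPM in BMSC-treated lungs. Here the groups overlapped through number 2, whose within-number difference was 0.05 against 2.13 and 1.77 for numbers 1 and 3 and was below 0 by deposited CPM. Without number 2 the edgeR adjusted p was 0.0141 for tRF-1:16-Leu-AAG-2-M3 and 0.0046 for tRF-1:16-Leu-TAG-3.

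The other leucine tRF-5a members moved less. tRF-1:16-Leu-CAG-1-M3 was at 5.43, 15.2 and 8.58 CPM in controls and 14.1, 16.8 and 20.4 CPM in BMSC-treated lungs, with all 3 within-number differences above 0. tRF-1:16-Leu-CAA-1-M5 was at 6.33, 24.8 and 11.6 against 13.2, 13.1 and 14.3 CPM, and tRF-1:16-Leu-TAA-2 at 30.3, 16.5 and 26.5 against 33.8, 1.87 and 18.9 CPM. Neither of these last members separated the groups. The 6 leucine members were picked because 3 of them had large differences, and reads of those 3 could have been split between them. Their median and sum are therefore a description only. Over the 6, 5 had a log2 change above 0 and the median was 1.32, beside 0.08 over all tsRNAs tested. Their summed level was 95, 158.4 and 150.4 CPM in controls and 329.4, 176.3 and 404.2 CPM in BMSC-treated lungs, so that all BMSC-treated libraries lay above the controls, number 2 by little.

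**Figure D2:**
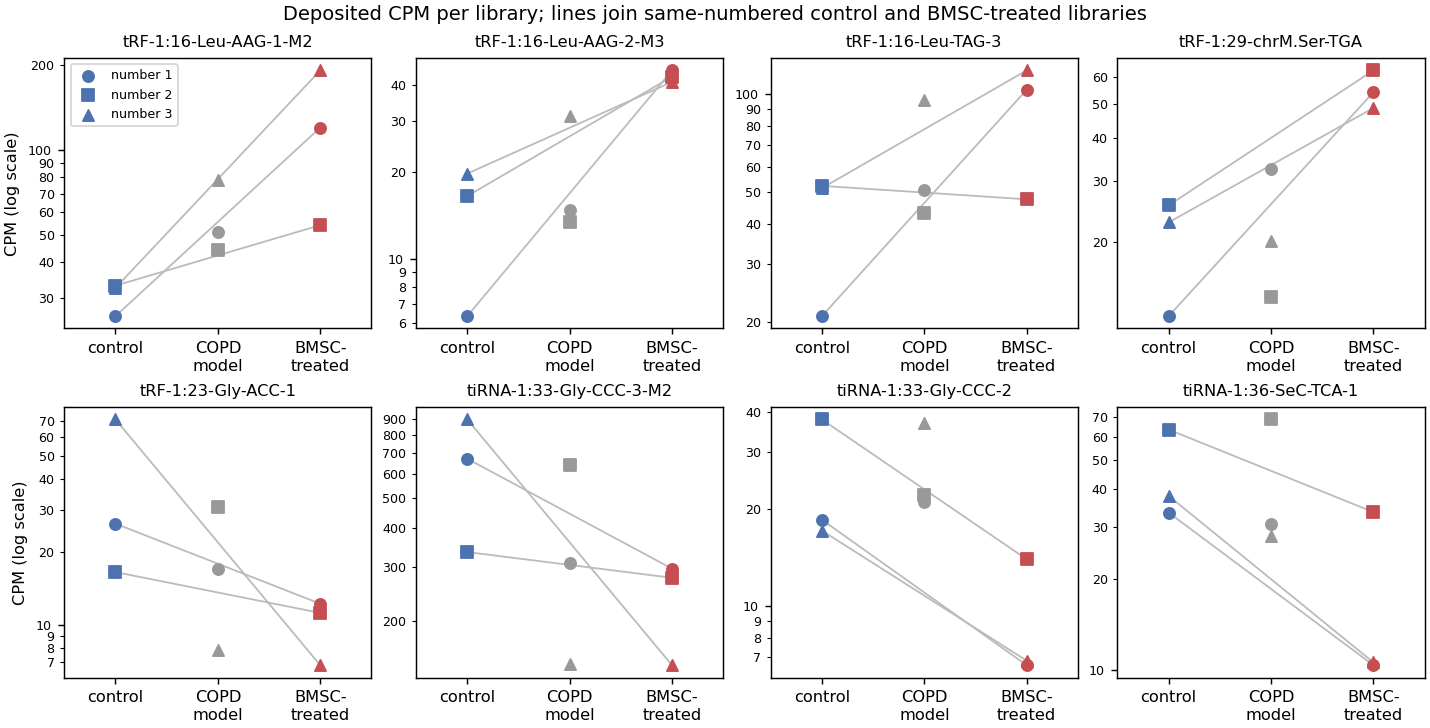
Deposited CPM (log axis) of 8 named tsRNAs in each control, COPD model and BMSC-treated library, where symbols give the number and lines join same-numbered control and BMSC-treated libraries. In the upper row every line slopes up except that of tRF-1:16-Leu-TAG-3 in number 2 (52.3 to 47.6 CPM), and in the lower row every line slopes down.

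Summed by the parent tRNA given in the name, the Leu-AAG class rose. It was at 37.5, 70.9 and 60.4 CPM in controls and at 174.8, 111 and 246.9 CPM in BMSC-treated lungs, and the groups did not overlap. The log2 change was 2.01 ± 0.53 (SE, n = 3 per group), with an edgeR adjusted p of 0.0387, which made it the 1 class called of 48 (2.08%). With the number as a block the adjusted p was 0.0793 and 0 classes were called (0%). Scaling to the mapped reads gave 0.368, and leaving out any 1 control, or BMSC-treated 1 or 3, gave 0.0632 to 0.537. Without both number 2 libraries it was 0.0596, and 0.000141 there with the block. Of its 3 members, the third, tRF-68:85-Leu-AAG-1-M4 from the 3′ end, was at 5.43 to 21.3 CPM in controls and 9.87 to 14.7 CPM in BMSC-treated lungs. The others, tRF-1:16-Leu-AAG-1-M2 and tRF-1:16-Leu-AAG-2-M3, match Leu-TAG tRNAs as well, so the sum cannot be assigned to Leu-AAG tRNAs alone. The tiRNA tiRNA-1:35-Leu-TAG-3 was lower within every number (-0.58, -0.72 and -0.42). The classes that held at least 5% of the counts in a library did not pass: the log2 change was 0.29 for Gly-GCC, 0.04 for Glu-CTC and 0.39 for chrM.Ser-GCT, with edgeR adjusted p of 0.858, 0.96 and 0.809.

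Summed by structural type, tRF-5a rose where the number was a block. The 17 members summed to 449.5, 794 and 527.3 CPM in control 1 to 3 and to 1094, 1107 and 636.4 CPM in BMSC-treated 1 to 3. Each BMSC-treated library lay above the control of its number, while BMSC-treated 3 lay below control 2. The log2 change was 0.89 ± 0.33 (SE, n = 3 per group), with an edgeR adjusted p of 0.0854 without the block (0 of 9 types called, 0%) and 0.00345 with it (1 of 9 called, 11.1%). The call with the block was lost without number 2 (adjusted p = 0.123) and without number 3 (0.396), and kept without number 1 (0.0358). Without number 2 and without the block the type was called (0.00973), and scaled to the mapped reads without the block it was not (0.926). The other 8 types did not pass (edgeR adjusted p = 0.789 to 0.869). Of the 17 members 13 had a log2 change above 0, with a median of 0.72. Without its 6 leucine members the type had a log2 change of 0.64 and an adjusted p of 0.809, or 0.54 and 0.512 with the block, a split that was chosen after the values were seen. The 11 other members summed to 354.6, 635.6 and 376.9 CPM in controls and 764.1, 931 and 232.1 CPM in BMSC-treated lungs, and in number 3 their sum was lower in the BMSC-treated library.

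Among these others, tRF-1:16-Gly-GCC-2-M3 was at 13.6, 21.3 and 15.7 CPM in controls and 14.1, 20.5 and 54 CPM in BMSC-treated lungs, so that 1 library held the difference. tRF-1:15-Gly-ACC-1-M8, shared by 8 tRNAs, was at 6.33, 8.26 and 10.4 against 9.4, 40.1 and 7.55 CPM, again with 1 high library, this time number 2. By deposited CPM the groups overlapped for each of them.

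**Figure D3:**
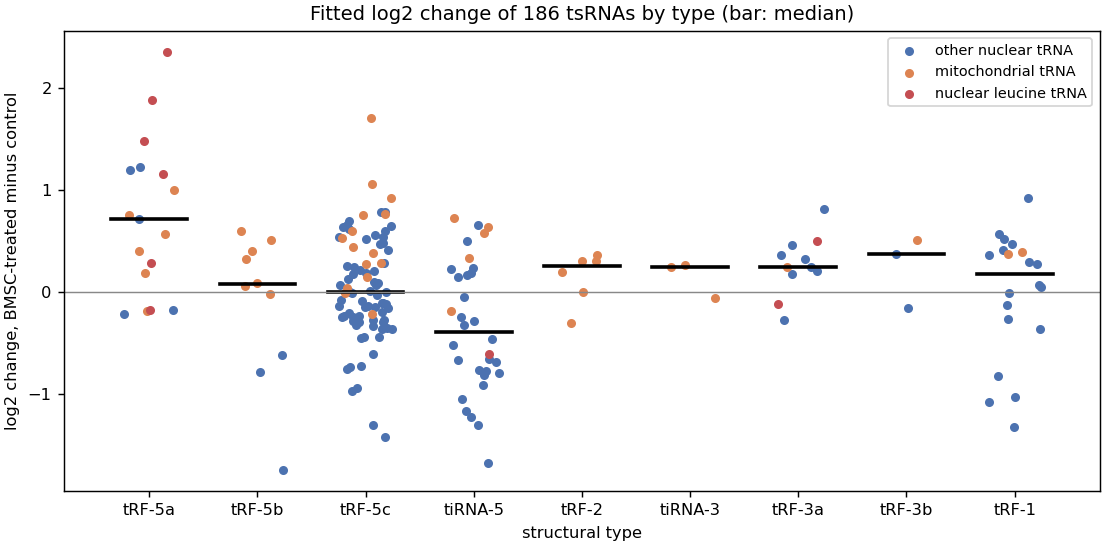
Fitted log2 change (BMSC-treated minus control) of the 186 tested tsRNAs by structural type, with the parent tRNA by colour and the median as a bar. The median is 0.72 for tRF-5a and -0.39 for the 5′ tiRNAs (tiRNA-5), and 3 leucine members are the highest of tRF-5a.

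The deposited type tiRNA-5 (5′ tiRNAs) does not hold exactly the fragments cut in the anticodon loop. It includes tiRNA-1:20-chrM.Ser-GCT, which ends at base 20 of a tRNA with its anticodon at bases 30 to 32. It leaves out the 32-nt Gly-GCC fragments, labelled tRF-5c, which end directly before the anticodon. Fragments labelled tiRNA-5 leaned the other way from tRF-5a, without passing the test as a type. Of 32 such fragments, 21 had a log2 change below 0 and the median was -0.39, or -0.69 with 25 below 0 when scaled to the mapped reads and -0.27 with 18 below 0 without number 2. They made up 7.72%, 11.4% and 9.43% of the listed counts in controls and 5.64%, 12.4% and 5.97% in BMSC-treated lungs. Numbers 1 and 3 were lower and number 2 was higher. The difference of -1.50 percentage points had p = 0.6 in a two-sided exact permutation test, whose smallest possible p was 0.1, and p = 0.5 in the exact paired test, whose smallest was 0.25 (adjusted p = 0.7 over 3 measures).

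tiRNA-1:33-Gly-CCC-3-M2, shared by 2 glycine tRNAs, was at 671.6, 334.7 and 900 CPM in controls and 295.6, 276.1 and 143.8 CPM in BMSC-treated lungs. By deposited CPM all 3 BMSC-treated values were below all controls, but with TMM factors the groups overlapped. Number 2 differed by only -0.09 on the log2 scale against -1.32 and -2.05. Its log2 change was -1.30 ± 0.63 (SE, n = 3 per group; edgeR adjusted p = 0.985), and without number 2 it was -1.67 with an adjusted p of 0.00237. tiRNA-1:33-Gly-GCC-1 was at 1110, 521.3 and 1332 CPM against 598.7, 629.7 and 253.6 CPM, lower in numbers 1 and 3 and higher in number 2; it lay outside the naming rule and was chosen after its values were seen. In the COPD model these fragments were at 308.4, 642.5 and 145.6 CPM and at 474, 1117 and 170.2 CPM.

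tiRNA-1:33-Gly-CCC-2, which differs from the Gly-CCC fragment above by 1 base and could share its reads, was at 18.5, 37.9 and 17.2 CPM in controls and 6.58, 14 and 6.79 CPM in BMSC-treated lungs. The groups did not overlap, and the within-number differences were -1.50, -1.19 and -0.69. tiRNA-1:36-SeC-TCA-1 comes from the tRNA that inserts selenocysteine, and was at 33.5, 63.4 and 38.1 CPM against 10.3, 33.6 and 10.6 CPM. It was lower in BMSC-treated lungs in every number (-1.74, -0.71 and -1.20), although BMSC-treated 2 lay just above control 1. tiRNA-1:34-Val-AAC-1 was at 20.8, 188.7 and 25.4 CPM in controls against 14.1, 21.5 and 19.6 CPM, so that control 2 alone carried its log2 change of -1.68, which was -0.20 without number 2. None of these 3 passed the test (edgeR adjusted p = 0.671 to 0.985).

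Shorter fragments that were lower included tRF-1:23-Gly-ACC-1, at 26.2, 16.5 and 70.9 CPM in controls and 12.2, 11.2 and 6.79 CPM in BMSC-treated lungs. The groups did not overlap, and number 3 differed most (-1.18, -0.35 and -2.67 on the log2 scale). Its log2 change was -1.74 ± 0.70 (SE, n = 3 per group; edgeR adjusted p = 0.671). The file assigns it to a glycine tRNA, but it is identical in 22 of 23 bases to the valine fragment tRF-1:23-Val-AAC-1-M4, from which it differs by T22G, so reads may be shared. That valine fragment, chosen for this likeness, was at 354.6, 351.2 and 885.5 CPM in controls and 246.3, 287.3 and 331.4 CPM in BMSC-treated lungs. It was lower without overlap by deposited CPM, but with TMM factors its groups overlapped. Fragments of Glu-CTC-2 of 28 and 29 nt were high in controls 1 and 3 and low in control 2. Of these, tRF-1:29-Glu-CTC-2 was at 61.5, 10.3 and 114.6 CPM against 49.8, 11.2 and 8.3 CPM. Its within-number difference was -3.09 in number 3 and under 1 in size in the others. tRF-1:28-Glu-CTC-2 gave -0.76, 1.27 and -3.08, with number 2 in the other direction. All 8 aspartate fragments (Asp-GTC) had a log2 change below 0, with a median of -0.51, beside 83 of 186 below 0 over all tsRNAs tested. None of them passed the test, and 3 of the 8 were lower within every number. The most abundant, tRF-1:32-Asp-GTC-1-M2, had within-number differences of -0.35, 0.43 and -0.09. Those named Asp-GTC-1-M2 are nested, so they are not independent.

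The 30-, 31- and 32-nt trailers of the Thr-CGT precursor were lower in BMSC-treated lungs within each number and varied more between numbers than between groups. tRF-+1:T32-Thr-CGT-1 was at 4.97, 48.2 and 17.2 CPM in controls and 2.35, 21.5 and 2.26 CPM in BMSC-treated lungs, where the limit of 3 counts was 1.41, 2.8 and 1.13 CPM. BMSC-treated 1 and 3 thus lay within a few reads of that limit. The 31-nt and 30-nt trailers, nested in the sequence of the 32-nt trailer but counted separately, were likewise lower in every number. tRF-+1:T31-Thr-CGT-1 was at 3.62, 51 and 20.5 against 1.88, 25.2 and 4.53 CPM. The 29-nt trailer, tRF-+1:T29-Thr-CGT-1, was instead at 5.22 CPM in control 3 and 6.42 CPM in BMSC-treated 3. Their edgeR adjusted p was 0.985, and all 4 tested Thr-CGT fragments were below 0 with a median of -1.06. COPD model 3 held 192.6 CPM of the 32-nt trailer beside 12 and 9.78 CPM in the other two.

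Mitochondrial fragments were mostly higher. Of 46, 39 had a log2 change above 0 with a median of 0.35, beside 64 of 140 nuclear tsRNAs with a median of -0.09. Scaled to the mapped reads the mitochondrial count was 34 with a median of 0.14, and without number 2 it was 28 with a median of 0.21. Their share of the listed counts was 6.48%, 19% and 5.77% in controls and 7.24%, 23.5% and 5.08% in BMSC-treated lungs, higher in numbers 1 and 2 and lower in number 3. The difference of 1.51 percentage points had p = 0.7 in the two-sided exact permutation test and p = 0.5 in the paired one (adjusted p = 0.7 over 3 measures). In bulk tissue, fewer cells of a type and less RNA per cell cannot be told apart.

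tRF-1:29-chrM.Ser-TGA separated the groups in every library. It was at 12.2, 25.5 and 22.8 CPM in controls and at 54, 62.5 and 48.7 CPM in BMSC-treated lungs. The within-number differences were 1.94, 1.43 and 1.64, close to each other. Its log2 change was 1.70 ± 0.64 (SE, n = 3 per group), with an adjusted p of 0.617 by edgeR and 0.173 with the block. DESeq2 gave 0.116, and 0.00475 with the block. The COPD model libraries were at 32.4, 13.9 and 20.2 CPM. Of the 5 listed fragments of this tRNA, tRF-1:29-chrM.Ser-TGA was the only 1 whose groups did not overlap. All 5 had a log2 change above 0, but those of 23, 24 and 31 nt were lower in number 3 (-0.28, -0.91 and -0.24). The 28-nt fragment was at 10.9, 16.5 and 32.1 CPM in controls and 24.4, 40.1 and 23.8 CPM in BMSC-treated lungs. The abundant tRF-1:22-chrM.Ser-GCT, from the tRNA that matched TrnS2 (GRCm38.p6, chromosome MT, 11613 to 11671), was at 37549, 70455 and 28159 CPM against 43566, 89631 and 28382 CPM, with number 2 high in both groups. tRF-1:32-chrM.Ile-GAT, from the tRNA that matched TrnI (chromosome MT, 3706 to 3774), was at 501.5, 720.3 and 409.3 CPM against 845, 2140 and 258.2 CPM. It was higher in numbers 1 and 2 and lower in number 3. The whole chrM.Ile-GAT class had a log2 change of 0.97 and did not pass (edgeR adjusted p = 0.809). Leaving out BMSC-treated 3 alone gave 1.40 and 0.0455, and leaving out any other single library gave an adjusted p of 0.704 to 0.984. Without number 2 the log2 change was 0.30.

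The most abundant tsRNAs were 5′ fragments of the glycine tRNA Gly-GCC. The 30-, 31- and 32-nt fragments named Gly-GCC-2-M3, which begin alike and are nested in the 33-nt tiRNA printed above, gave 55.8% to 81.9% of all listed counts. tRF-1:32-Gly-GCC-2-M3 was at 282919, 152316 and 248489 CPM in controls and 233128, 126131 and 230992 CPM in BMSC-treated lungs, lower on this scale in every number. tRF-1:31-Gly-GCC-2-M3 was at 140565, 75876 and 131961 CPM against 180481, 87446 and 181570 CPM, higher in every number. Their fitted log2 changes were 0.00 and 0.60, and neither passed the test.

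Shares of one ladder do not depend on how libraries were scaled. A ladder pools all parents of a class, here Gly-GCC-1 and Gly-GCC-2-M3, which differ by T5G. A share can therefore shift with the levels of the parents as well as with where fragments end. Of all Gly-GCC 5′ fragments of 28 nt or more, those of 32 nt made up 51.7%, 54.9% and 52% in control 1 to 3 and 41.1%, 48.7% and 40.9% in BMSC-treated 1 to 3. The share was lower in every BMSC-treated library than in every control. Those of 31 nt made up 25.4%, 27.1% and 27.2% in controls and 31.6%, 32.8% and 32.1% in BMSC-treated lungs, again without overlap and in the opposite direction. Shares of one ladder add up to the whole, so a lower share at one length forces higher shares at others. The 2 differences are therefore not separate results, here or in the ladders below. Number 2 had this difference of the 31-nt fragment too (5.69 percentage points, beside 6.25 and 4.90), unlike the difference of the 30-nt fragment. The latter was at 13.7% in both number 2 libraries, and at 16.7% against 22.4% and 14% against 22.8% in numbers 1 and 3. The COPD model libraries, given for their position only, held 62.2%, 59.8% and 58.1% of 32 nt and 22.5%, 21.8% and 21.5% of 31 nt, on the far side of the controls from the BMSC-treated libraries. This measure was chosen after its values were seen and has no test.

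Ladders of the same kind were formed for 10 parent classes with fragments of at least 4 lengths, which gave 54 length shares, of which the groups did not overlap in 6 (11.1%). With 3 libraries a group, the two-sided exact permutation test cannot give a p below 0.1 even without overlap. Separation in 6 of 54 shares is therefore not read as a result. Gly-CCC had 8.16%, 5.02% and 8.92% of 31 nt in controls and 12.2%, 9.4% and 14.8% in BMSC-treated lungs, without overlap. The 33-nt tiRNAs of Gly-CCC-1, Gly-CCC-2 and Gly-CCC-3-M2 together were at 57.9% against 53.1%, 72.4% against 63.6% and 61.3% against 45.6% in numbers 1, 2 and 3, lower each time. By deposited CPM, tiRNA-1:33-Gly-CCC-1 was higher in numbers 1 and 3 (555.8, 1019 and 488.4 against 674.8, 637.2 and 595.2 CPM). Gly-CCC-1 had no listed fragment of 30 or 31 nt, so these shares mix the parents' levels with length. His-GTG had 36.9%, 38.6% and 30.7% of 31 nt against 41.2%, 48.9% and 65.7%, and 39%, 38.2% and 45.9% of 32 nt against 37%, 28.5% and 19.1%. The remaining share without overlap was the 34-nt fragment of Gly-TCC, at 1.66%, 2.73% and 2.37% against 0.69%, 1.51% and 0.356%. By mean length, 3 of the 10 ladders were shorter and 2 longer in BMSC-treated lungs within all 3 numbers, so a shorter mean length was not shared by all parent classes.

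**Figure D4:**
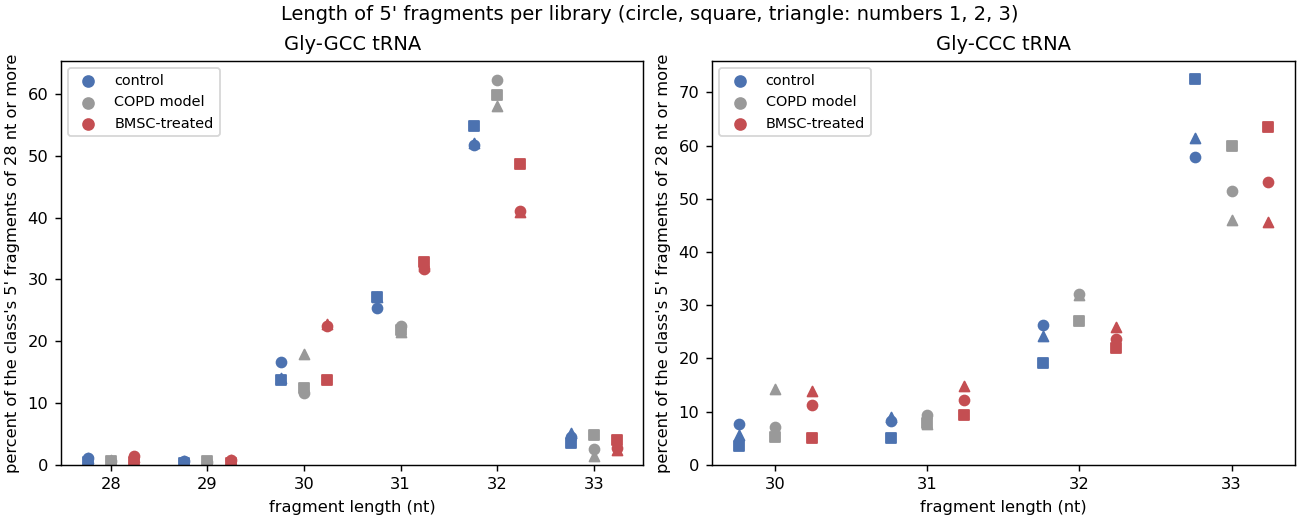
Percent of the 5′ fragments of 28 nt or more that had each length (nt), for Gly-GCC and Gly-CCC tRNA, in each control, COPD model and BMSC-treated library (symbols give the number). For Gly-GCC the BMSC-treated libraries lie above the controls at 31 nt (31.6% to 32.8% against 25.4% to 27.2%) and below them at 32 nt (40.9% to 48.7% against 51.7% to 54.9%).

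Over all listed tsRNAs, the mean length weighted by counts was 30.85, 29.88 and 30.96 nt in controls and 30.59, 29.53 and 30.80 nt in BMSC-treated lungs. It was shorter by 0.27, 0.35 and 0.16 nt within numbers 1 to 3. The mean difference of -0.26 nt had p = 0.5 in the two-sided exact permutation test and p = 0.25, the smallest it can give, in the exact paired test (adjusted p = 0.7 over 3 measures for the former). Across the 186 tsRNAs the log2 change correlated with length at r = -0.35, a description in which nested fragments of one tRNA are not independent.

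Within numbers, 42 tsRNAs were higher in BMSC-treated lungs in all 3 pairs (22.6%) and 21 were lower (11.3%), on the log2 scale with TMM factors. This split depends on the scaling. Over all 186, the fitted change was above 0 for 103 with TMM factors and for 81 when scaled to the mapped reads. tRF-1:24-chrM.Ile-GAT, for example, is among those higher, but went from 17.9 to 13.6 deposited CPM in number 3. Each pair had its own spread. In number 1, 9 tsRNAs were higher and 14 lower by more than 1 on the log2 scale, in number 2 19 and 11, and in number 3 22 and 36. With TMM factors the median difference was -0.04, 0.28 and 0.03 in the same order, so on that scale number 2 leaned upward as a whole, with 127 of 186 above 0. By deposited CPM, all BMSC-treated libraries lay above all controls for 3 tsRNAs (1.61%), which were tRF-1:16-Leu-AAG-1-M2, tRF-1:16-Leu-AAG-2-M3 and tRF-1:29-chrM.Ser-TGA, and below them for 6 (3.23%). With TMM factors as well, all 3 of the former and 2 of the latter, tRF-1:23-Gly-ACC-1 and tiRNA-1:33-Gly-CCC-2, still did not overlap.

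The abundant fragments that were higher within every number differed by less. tRF-1:32-Gly-TCC-1 was at 1047, 1077 and 1594 CPM in controls and 1678, 1590 and 1452 CPM in BMSC-treated lungs, and its within-number differences were 0.54, 0.74 and 0.46 on the log2 scale with TMM factors. On the deposited CPM scale number 3 was lower, so its direction there depends on the scaling. tRF-1:30-Gly-GCC-1 was at 7510, 2833 and 6820 CPM against 10786, 3718 and 7175 CPM, higher within each number on both scales. In contrast, tRF-1:32-Gly-GCC-1 was at 22726, 12695 and 24665 CPM against 17262, 15633 and 8019 CPM, lower in numbers 1 and 3 and higher in number 2. The edgeR adjusted p was 0.985 for each of these.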

How the data were processed

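tsRNA libraries of 3 control and 3 BMSC-treated lungs were compared, with groups and numbers taken from the sample labels. Total RNA was extracted with Trizol and pretreated to remove modifications before small RNA libraries were made, per the labels' protocols. FastQC, cutadapt, StringTie, Bowtie and the mouse build mm10 are named in the submitters' processing notes, with versions and roles not given in the sources used here. Per the file headers, the authors deposited the tsRNAs as raw counts, not normalized, and once more as CPM. Counts divided by CPM gave each library's mapped total. Reads were not collapsed to molecules. Fragment lengths (another kind of value) were taken from the deposited table, per the file headers. FPKM values of marker genes came from the authors' deposited mRNA table.

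The members and lists were chosen with earlier results of these data known. Tests used edgeR 4.0.16 (R 4.3.3; quasi-likelihood, TMM factors, filterByExpr by group, library sizes from the listed counts) on the counts of single tsRNAs and on sums by type and parent class, with Benjamini-Hochberg adjustment and a threshold of 0.05. After the filter, 186 of 193 tsRNAs were tested, and the other 7 reached at most 17.7 CPM. Within-number differences used log2 CPM with TMM factors and a prior count of 2. The scripts were tested on simulated data. Numbers were taken to pair libraries where every same-numbered correlation of deviations exceeded 0.1, which was met from the data, not from the labels. Control 3 with BMSC-treated 1 (0.57) and control 1 with BMSC-treated 3 (0.22) exceeded 0.1 as well. The threshold therefore does not establish the pairing that the block assumes. Named tsRNAs were the 8 with the smallest p in each direction, the 5 most abundant and, in each direction, the 5 whose smallest of 3 one-signed within-number differences was largest. Alternatives were DESeq2 1.42.0, other scalings, no filter, 9 libraries in one fit, the block, and leaving libraries out.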

Additional observations from a re-analysis of the deposited data

How the results depend on the processing

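With the replicate block, the count of called tsRNAs stayed at 0, that of types went from 0 to 1 (tRF-5a) and that of parent classes from 1 to 0 (Leu-AAG), and no other call changed. Called tsRNAs numbered 7 without both number 2 libraries and 5 there with the block. They numbered 0 without both number 1 or both number 3 libraries, with or without the block. DESeq2 called 1, and 3 with the block. Leaving out single libraries gave 0 to 1 called tsRNAs, the 1 being without BMSC-treated 2. Called types numbered 2 without both number 1 libraries with the block and 1 without both number 2 libraries; with the block, none was called without number 2 or without number 3. Called classes numbered 0 with DESeq2 size factors, with scaling to mapped reads and without both number 1 libraries (with or without the block). Without both number 2 libraries they numbered 0, and 1 with the block. Without both number 3 libraries they likewise numbered 0, and 1 with the block (edgeR adjusted p = 0.00299). With single libraries left out, 0 to 1 classes were called. The cause of these changes was not tested. The log2 change of tRF-1:16-Gly-GCC-2-M3, 1.20 over all 6 libraries, was -0.065 without both number 3 libraries (-0.055 with the block). The other signs that turned belonged to smaller changes. tRF-1:32-Gly-GCC-2-M3 was at -0.0066 with the block, -0.21 scaled to mapped reads, -0.0046 without number 2, -0.30 without number 3 (-0.33 with the block), -0.022 with DESeq2 and the block, and -0.36 to 0.39 over single libraries left out. Without number 2, tRF-3a was at -0.012 (-0.025 with the block), tRF-3b at -0.10 (-0.13) and tiRNA-3 at -0.10 (-0.13). Without number 1, tiRNA-5 was at 0.19 (0.21 with the block). Without number 3 and with the block, tRF-5c was at -0.033 and Gly-GCC at -0.059. Over single libraries left out, the ranges were -0.35 to 0.54 for tRF-1, -0.43 to 0.015 for tRF-2, -0.17 to 0.53 for tRF-3a, -0.16 to 0.73 for tRF-3b, -0.069 to 0.69 for tRF-5c, -0.37 to 0.54 for tiRNA-3, -0.33 to 0.10 for tiRNA-5 and -0.088 to 0.68 for Gly-GCC. The difference in mitochondrial share was -4.27 percentage points without BMSC-treated 2 and 5.81 without control 2. The Gly-GCC mean length differed by -0.26 to -0.14 nt over single libraries left out, a measure and check chosen after seeing the data. One-signed tsRNAs numbered 63, or 57 on the deposited CPM scale, an alternative also added after seeing the data. With 3 libraries a group, members at low CPM rest on few reads in the number 2 libraries.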
